A study of Brassica napus with 12 samples.

Results

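The histone genes of Brassica napus (oilseed rape) were followed in RNA-seq libraries of true leaves. The loci were those whose Arabidopsis match the deposited annotation describes as a histone superfamily protein, and which reached at least 1 FPKM in at least 2 libraries. FPKM, the fragments of a transcript relative to its length and to the size of the library, is a level per length that can be set side by side between genes. Of 89 loci with that description, 77 met the minimum, among 49700 loci tested and 101040 in the table. In 60 of the 77, all 12 libraries were at 1 FPKM or more.

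All plants were the genotype RV31, grown for 21 days in white light, and leaves were taken 4 h into or after treatment. The 6 groups held 2 libraries each, numbered 41 and 42: white light (WL, at 70 µmol m−2 s−1 without UV-B), UV-B (3 µmol m−2 s−1), feeding for 1 h by larvae of the diamondback moth Plutella xylostella (herbivory), and sprays of 4 mL per plant of distilled water, of 0.01% ethanol with 0.01% of the wetting agent UN65 (EU), or of 100 µM methyl jasmonate (MeJA) in that same ethanol and wetting agent. Per the study's methods, sprayed and grazed plants stood in weaker white light than the WL plants, sprayed plants were also kept under a propagator, and grazed plants were harvested 4 h after the larvae had been taken off. RNA of independent plants was pooled for each treatment, and no source used here says whether libraries 41 and 42 are separate pools, so p-values measure the spread between these libraries only.

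Histones H2A, H2B, H3 and H4 form the protein core around which DNA is wrapped, and linker histone H1 sits on the DNA between cores. Most H4, H2A and H2B genes and the canonical H3.1 genes are expressed mainly while DNA is copied, when new chromatin is packed. The variant H3.3 differs from H3.1 at a few amino acids, is made throughout the cell cycle and replaces H3 at transcribed genes. In young leaves, the cells that still divide are the main source of the replication-linked transcripts. In whole leaves, fewer dividing cells and less histone RNA per dividing cell cannot be told apart.

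By Arabidopsis match the 77 loci comprised 27 of H4, 17 of the H3.1 class, 16 of H2B, 11 of the H3.3 class, 2 of H2A, 1 of the centromeric variant CENH3 and 3 other histone-fold loci. All 27 H4 loci matched a single Arabidopsis gene, H4G (AT5G59970), and all 17 H3.1 loci matched HTR1 (AT5G65360). The Arabidopsis copies of each encode the same protein, so the match gives a class, not a one-to-one partner, and reads from near-identical copies could have been divided among loci, so the level of a single copy is less certain than that of its class. The A subgenome carried 37 of the loci and the C subgenome 40. Most H2A loci, all H1 loci and 8 further H2B loci were annotated in other words and are described below only for comparison.

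The 12 loci left out all stayed below 1 FPKM, with 0.967 the highest value and 7 listed at 0 in every library. They included all 5 loci matching LEC1 (AT1G21970), a seed regulator with a histone fold. The loci just inside the minimum were BnaC02g08740D and BnaA06g04640D, each at 1 FPKM or more, as deposited, in only 2 libraries.

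The labelled tissue was checked with marker genes: 17 loci of the photosynthesis genes RBCS and LHCB were tested, with the RBCS3B locus BnaA04g27920D between 2781 and 12653 FPKM, while all 15 loci of the shoot meristem genes STM, KNAT1, CLV3 and WUS were below the minimum. Replicates correlated at r between 0.874 and 0.926 over all tested loci, and some libraries correlated as well with libraries of other groups (up to 0.928). Read totals are not given in the sources used here. Whole-read steps could be seen among the low FPKM values of 10 libraries, and against herbivory 42, the deepest of them by this measure, 1 read was worth 1.14 to 1.68 times as many FPKM in the others. UV-B 41 and EU 41 showed no such steps.

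Histone transcripts were abundant. Together the 77 loci made up between 0.236% and 0.555% of the summed FPKM of the tested loci in a library. In libraries 41 and 42 this share was 0.3025% and 0.3012% in WL, 0.236% and 0.247% under UV-B and 0.440% and 0.255% after herbivory. It was 0.412% and 0.555% after water, 0.533% and 0.498% after EU and 0.434% and 0.343% after MeJA. The single most abundant locus encoded H3.3: BnaAnng26750D, matching HTR8, was at 446 and 457 FPKM in WL, 713 and 720.0 under UV-B, 661 and 498 after herbivory, 693 and 724 after water, 769 and 473 after EU and 635 and 853 after MeJA (replicates 41 and 42, here and below). Both WL libraries were the lowest of the 12. Its group means did not differ beyond the replicate spread (limma F test over 6 groups, adjusted p = 0.715). Next came the H2B locus BnaA07g37520D (A07_random, 1134618 to 1135300), matching HTB4, with a mean of 202 FPKM. The leading H4 locus, BnaC03g20760D (C03, 11053882 to 11054458), averaged 95.4 FPKM and the leading H3.1 locus, BnaC09g06910D (C09, 4284855 to 4285455), 56.1 FPKM. The H2A loci (BnaA10g08450D at 2.11 and BnaC09g30950D at 1.73 FPKM on average) and the CENH3 locus BnaCnng08660D (1.99 FPKM) were near the minimum.

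The levels of the replication-linked classes differed widely between libraries of the same group. The H3.1 loci summed to 448 and 275 FPKM in WL, 114 and 249.6 under UV-B, 505 and 89.6 after herbivory, 412 and 399 after water, 419 and 511 after EU and 431 and 226 after MeJA. The lowest and the second-highest of the 12 sums thus belonged to the same treatment, herbivory. The H4 loci were lowest in the same pair of libraries, UV-B 41 and herbivory 42, with 1060.2 and 613 FPKM in WL, 292 and 629 under UV-B, 1289.96 and 358 after herbivory, 882 and 929 after water, 1016 and 1143 after EU and 1081 and 579 after MeJA. The H2B loci summed to between 411 FPKM in herbivory 42 and 1276 FPKM in water 42. The span from the lowest to the highest library was 5.71-fold for H3.1, 4.41-fold for H4, 3.11-fold for H2B and 1.79-fold for H3.3. The H3.3 sum lay between 866 FPKM in herbivory 42 and 1548 FPKM in UV-B 42.

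**Figure D1:**
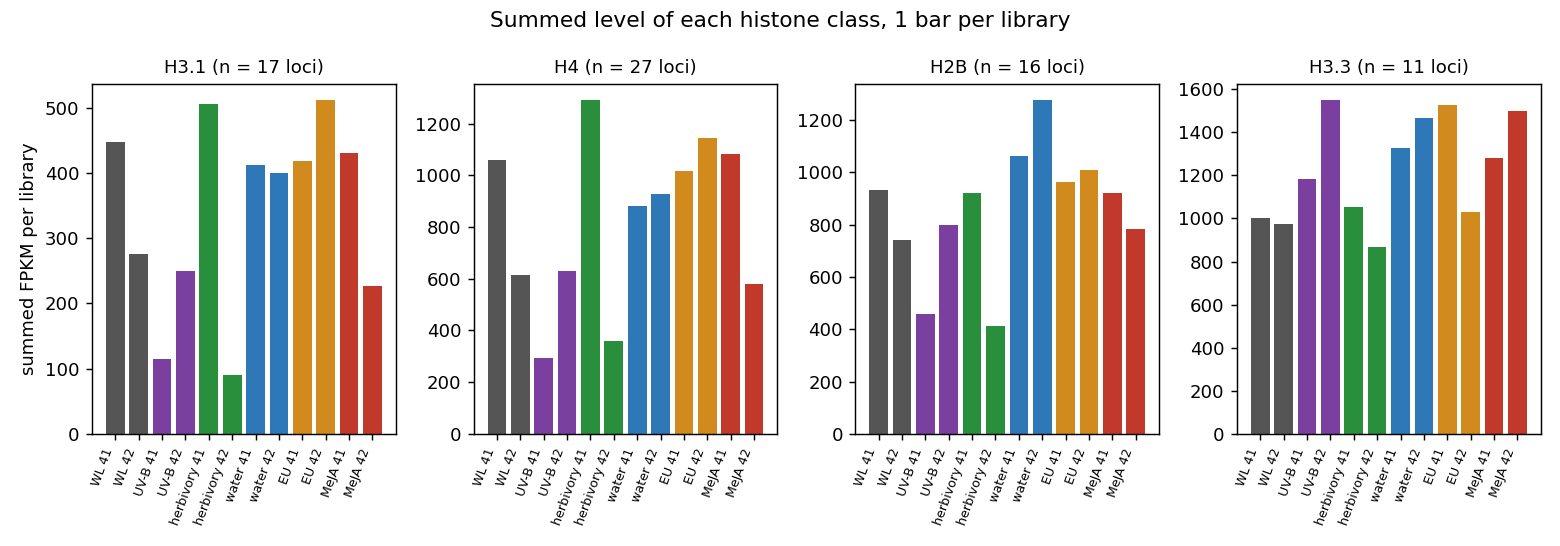
Summed FPKM of the loci of each histone class (1 panel per class, 1 bar per library, linear axis from 0, coloured by group; FPKM divided by each library's scaling factor). The H3.1 and H4 bars of herbivory 41 and 42 stand far apart (505 against 89.6 FPKM and 1289.96 against 358 FPKM), while the H3.3 bars stay between 866 and 1548 FPKM.

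The balance of the classes differed between libraries too. Summed H3.1 over summed H3.3 was 0.447 and 0.282 in WL, 0.0963 and 0.161 under UV-B, 0.480 and 0.103 after herbivory, 0.310 and 0.273 after water, 0.275 and 0.496 after EU and 0.336 and 0.151 after MeJA. Both UV-B libraries were below both WL libraries in this ratio, and every other group overlapped WL. Both sums entered into this. H3.3 summed to 1184 and 1548 FPKM under UV-B, against 1001 and 975 in WL. In UV-B 42 the H3.1 sum, 249.6 FPKM, was close to the 275 FPKM of WL 42. In herbivory 41 the H3.3 sum lacked the locus BnaC01g00910D, which was at 0.0818 FPKM there. The ratio of H3.1 to H4 was steadier, between 0.250 and 0.466.

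Within the H3.1 and H4 classes the loci varied together. The Pearson correlation of each locus with the median profile of the H3.1 and H4 loci over the 12 libraries, with the locus itself left out of that profile, had a median of 0.90 for H3.1 and 0.92 for H4. It was over 0.8 for 14 of 17 H3.1 loci and 22 of 27 H4 loci. Of the 16 H2B loci, 9 were over 0.8, with a median of 0.83. For the 11 H3.3 loci the median was 0.26. These correlations describe 12 shared libraries and carry no test.

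**Figure D2:**
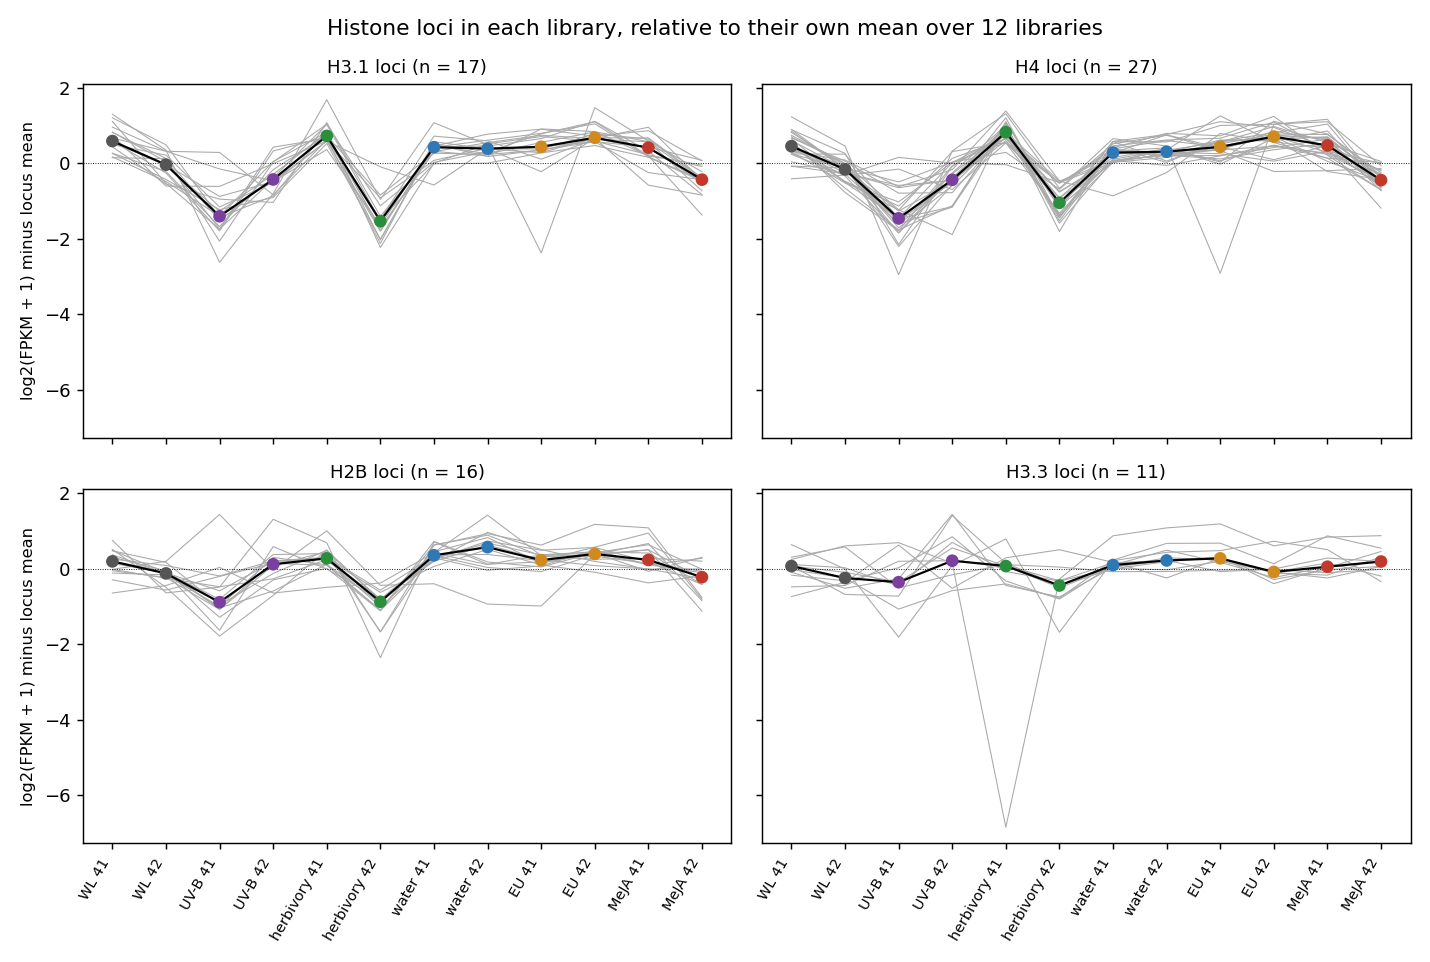
Level of each histone locus in each library as log2(FPKM + 1) minus the locus mean over 12 libraries (grey lines, 1 per locus; black line and coloured points, class median; 1 panel per class). H3.1 and H4 medians are low together in UV-B 41 (−1.40 and −1.46) and herbivory 42 (−1.53 and −1.04), while H3.3 medians stay between −0.45 and 0.28, with 1 H3.3 locus near 0 FPKM in herbivory 41.

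A single H3.3-class locus kept the H3.1 pattern. BnaC09g16950D (C09, 13843080 to 13843732), whose match is the H3.3 gene HTR4, was at 26.7 and 16.7 FPKM in WL, 4.07 and 17.8 under UV-B, 29.7 and 4.54 after herbivory, 19.6 and 23.0 after water, 23.8 and 28.4 after EU and 24.3 and 13.1 after MeJA. It was lowest in UV-B 41 and herbivory 42, the low libraries of the H3.1 loci, and its correlation with the H3.1 and H4 profile was 0.97. No other H3.3 locus was over 0.8. It was singled out after its values were seen. At the other end, both H2A members ran against the profile (r of −0.55 and −0.72), at levels of a few FPKM.

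Loci that lie side by side gave a view of the gene organisation. Within 10000 bases of each other lay 7 pairs of members, 5 of them an H4 with an H2B locus and 2 an H3.1 with an H3.1 locus. In the pair on C04, BnaC04g15470D (H4) and BnaC04g15480D (H2B) are 6944 bases apart, averaged 5.67 and 127 FPKM, and correlated at 0.76 over the 12 libraries. In the tandem H3.1 pair on A10, BnaA10g21870D and BnaA10g21880D are 773 bases apart, averaged 35.1 and 12.7 FPKM, and correlated at 0.87. Over the 7 pairs the correlation was between 0.49 and 0.87. Pairs of members lying apart were not compared, so these values show nothing particular to neighbours.

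The replicates of the H3.1, H4 and H2B classes differed most in the herbivory group. There, library 42 was below library 41 at all 17 H3.1 loci and all 27 H4 loci, with medians of −2.45 and −1.95 on the log2 scale of FPKM + 1, against 0.03 over all tested loci. It was at least 2-fold lower at 16 of 17 H3.1 loci and 25 of 27 H4 loci, against 5.66% of all tested loci. The H2B median was −1.20 and the H3.3 median −0.37. In the UV-B group library 42 was the higher, with medians of 0.98 for H3.1, 1.05 for H4, 0.91 for H2B and 0.82 for H3.3, so that H3.3 differed more there than after herbivory. Over all tested loci, too, the absolute difference between replicates was larger in the UV-B group (median 0.49) than in the herbivory group (0.35). The MeJA group (−0.82 and −0.98) and the WL group (−0.69 and −0.71) differed in the other direction, and the water and EU libraries were closest, at 0.02 and 0.14 and at 0.28 and 0.24.

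**Figure D3:**
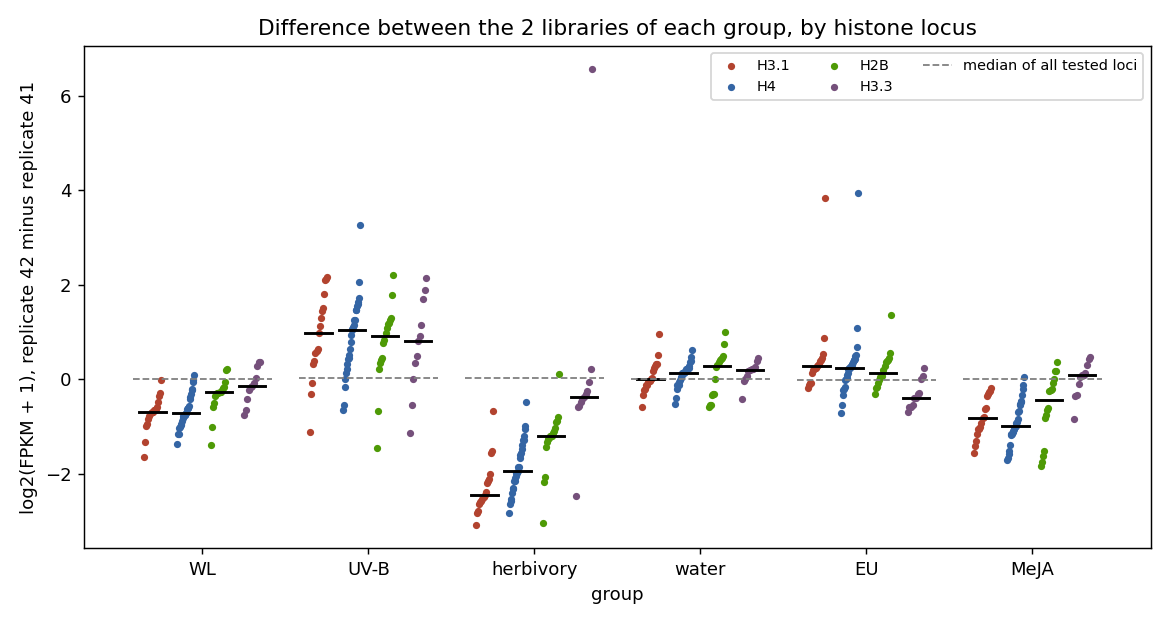
Difference between the 2 libraries of each group as log2(FPKM + 1) in replicate 42 minus replicate 41 (1 point per histone locus, coloured by class; black bars, class medians; dashed line, median of all tested loci). In the herbivory group the H3.1 and H4 medians are −2.45 and −1.95, in the water group 0.02 and 0.14.

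Other values moved with the low histone level of herbivory 42, and their part in it was not tested. The photosynthesis loci there had a median of −1.43 relative to their own means, with a summed level of 14429 FPKM against 26322 to 59279 FPKM in the other 11 libraries, and they were below their means in UV-B 41 and UV-B 42 as well, at −0.40 and −0.58, where H4 was at −1.46 and −0.44. Loci of other genes of 400 to 700 bases, about the size of a histone gene, were at −0.15 in herbivory 42 and 0.13 in UV-B 41 (701 loci). The stomatal lineage genes, which mark the asymmetrically dividing cells of the young epidermis, summed to 43.6 FPKM in herbivory 41 and 17.1 FPKM in herbivory 42. Those 12 loci were low in all WL and UV-B libraries (8.56 to 19.0 FPKM) and high in all sprayed ones (38.5 to 63.2 FPKM), an order that the H3.1 and H4 loci did not share, since WL 41 was above both water libraries in both sums.

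UV-B against white light compared plants given 4 h of UV-B with plants in white light alone. Per the study's methods, the groups stood on different shelves of the same cabinet. No white light level is given for the UV-B plants of this experiment, so other differences in light cannot be told apart from UV-B. Most replication-linked histone loci had lower values under UV-B, and no single one of them passed the test. Of 17 H3.1 loci all 17 had a lower mean, with a median log2 fold change of −0.95, and of 27 H4 loci 26 did, with a median of −1.16. H2B loci were lower at 12 of 16, with a median of −0.29, and H3.3 loci at 4 of 11, with a median of 0.11. The median over all tested loci was −0.0047, and 50.4% of them were lower. The loci of a class varied together over the same libraries, so counts of lower loci, here and below, are not independent observations. The photosynthesis loci had differences of the same sign as the replication-linked histones: 15 of 17 were lower under UV-B, with a median of −0.96, and 12 of the 17 had both UV-B libraries below both WL libraries, as did 12 of 17 H3.1 loci. Their part in the histone values was not tested. Both UV-B libraries were below both WL libraries at 38 of the 77 members, where 24.0% of all tested loci were, and above both at 7, where again 24.0% of all tested loci were.

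By the test (limma's moderated test fitted to the 6 groups together, Benjamini-Hochberg adjustment over all tested loci, adjusted p under 0.05 and at least a 2-fold change), 1 of 77 members was called higher and none lower, where 2.56% of all tested loci were called higher, 0.857% lower and 3.42% either way. At an unadjusted p under 0.05 there were 6 lower and 2 higher members, 10.4% of the members, where 21.9% of all tested loci were in either direction. Leaving out UV-B 41 moved the H4 median from −1.16 to −0.53, and leaving out UV-B 42 moved the H3.1 median from −0.95 to −1.52. Both stayed below 0 whichever library was left out. The H2B median turned to 0.051 without UV-B 41 and was −0.90 without UV-B 42, and the H3.3 median turned to −0.34 without UV-B 42 and was 0.56 without UV-B 41.

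The called member was BnaC02g08740D (C02, 4883165 to 4884592), a histone-fold locus that matches AT5G19490 and belongs to none of the core classes. It was at 0.370 and 1.02 FPKM in WL, 4.94 and 8.10 under UV-B, 0.660 and 0.994 after herbivory, 0.968 and 0.912 after water, 0.709 and 0.411 after EU and 0.478 and 0.607 after MeJA. Both UV-B libraries were several times above the other 10. The log2 fold change was 2.14 (SE 0.29, adjusted p = 0.0145 in limma, 2 libraries against 2), and it was the only member to differ among the 6 groups (F test, adjusted p = 0.0185), where 8.11% of all tested loci did. It reached 1 FPKM, as deposited, in the UV-B libraries alone, so it entered the test only because it was high there. Without WL 41 or WL 42 its adjusted p rose to 0.0644 and 0.0574.

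A second histone-fold locus was high in a single UV-B library. BnaA03g13400D (A03, 6086082 to 6087802) matches AT5G50930, the Arabidopsis gene MHF1, whose protein works with the FANCM helicase in DNA repair. It was at 1.15 and 2.46 FPKM in WL, 2.77 and 10.8 under UV-B, and between 0.351 and 1.71 in the other 8 libraries. The log2 fold change of 1.29 (SE 0.53) did not pass the test (adjusted p = 0.200 in limma). Its C03 counterpart by match, BnaC03g16220D, stayed between 0 and 1.92 FPKM.

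The most abundant H3.1 and H4 loci show the spread behind these means. BnaC09g06910D (H3.1) was at 74.0 and 40.7 FPKM in WL and at 13.4 and 61.5 under UV-B. The groups overlapped, and the log2 fold change of −0.90 had an SE of 0.85 (adjusted p = 0.574 in limma). BnaC09g46260D, the other leading H3.1 locus, was at 63.6 and 41.9 FPKM in WL and 23.0 and 30.5 under UV-B. Here the groups did not overlap, at a log2 fold change of −0.94 (SE 0.57, adjusted p = 0.372 in limma). The H4 locus BnaC03g20760D was at 122.9 and 63.3 FPKM in WL and at 37.4 and 111.3 under UV-B, again overlapping (log2 fold change −0.44, SE 0.62). The H4 locus BnaA03g17280D had the same shape, with 112.0 and 57.0 FPKM in WL and 35.9 and 87.5 under UV-B (−0.50, SE 0.58). The smallest adjusted p of the H3.1, H4 and H2B loci was at a less abundant H4 locus, BnaC04g39990D. It was at 38.1 and 38.0 FPKM in WL and 10.9 and 13.9 under UV-B, without overlap. Its log2 fold change of −1.55 (SE 0.54) did not pass the test (adjusted p = 0.146 in limma).

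Both leading H2B loci had non-overlapping groups, which was not typical of their class. Both UV-B libraries were below both WL libraries at 5 of 16 H2B loci. The same held at 19 of 27 H4 loci and 12 of 17 H3.1 loci, where 24.0% of all tested loci did so. BnaA07g37520D was at 215 and 176 FPKM in WL and at 75.8 and 152 under UV-B (log2 fold change −0.85, SE 0.48, adjusted p = 0.331 in limma). BnaC04g15480D was at 154 and 108 FPKM in WL and at 57.4 and 78.5 under UV-B (−0.93, SE 0.42, adjusted p = 0.235 in limma). Neither passed the test.

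Among well-expressed members (mean log2 value of at least 3), the largest positive difference under UV-B was that of the H3.3 locus BnaA07g21610D, at 20.5 and 15.0 FPKM in WL and 18.0 and 61.1 under UV-B (log2 fold change 0.89, SE 0.47, adjusted p = 0.309 in limma). The high value came from UV-B 42 alone: without UV-B 41, this locus and BnaA03g13400D were called higher beside BnaC02g08740D (adjusted p of 0.0230, 0.0458 and 0.00901, the lone library being assumed to vary like the other groups). The largest negative difference at that level of expression was at the H4 locus BnaA03g09320D, at 34.2 and 19.6 FPKM in WL and 0.950 and 17.9 under UV-B (−2.15, SE 1.35, adjusted p = 0.388 in limma). It was near 1 FPKM in EU 41 as well (0.996), and it lies in a stretch of A03 where neighbouring genes were also low, with 10 neighbours at a median of −1.74 relative to their own median library in UV-B 41, whose part in the value was not tested. An H3.1 locus on A08, BnaA08g26540D, was listed at 0 in UV-B 41 and at 0.187 FPKM in EU 41, against a median of 7.23 FPKM over the 12 libraries.

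**Figure D4:**
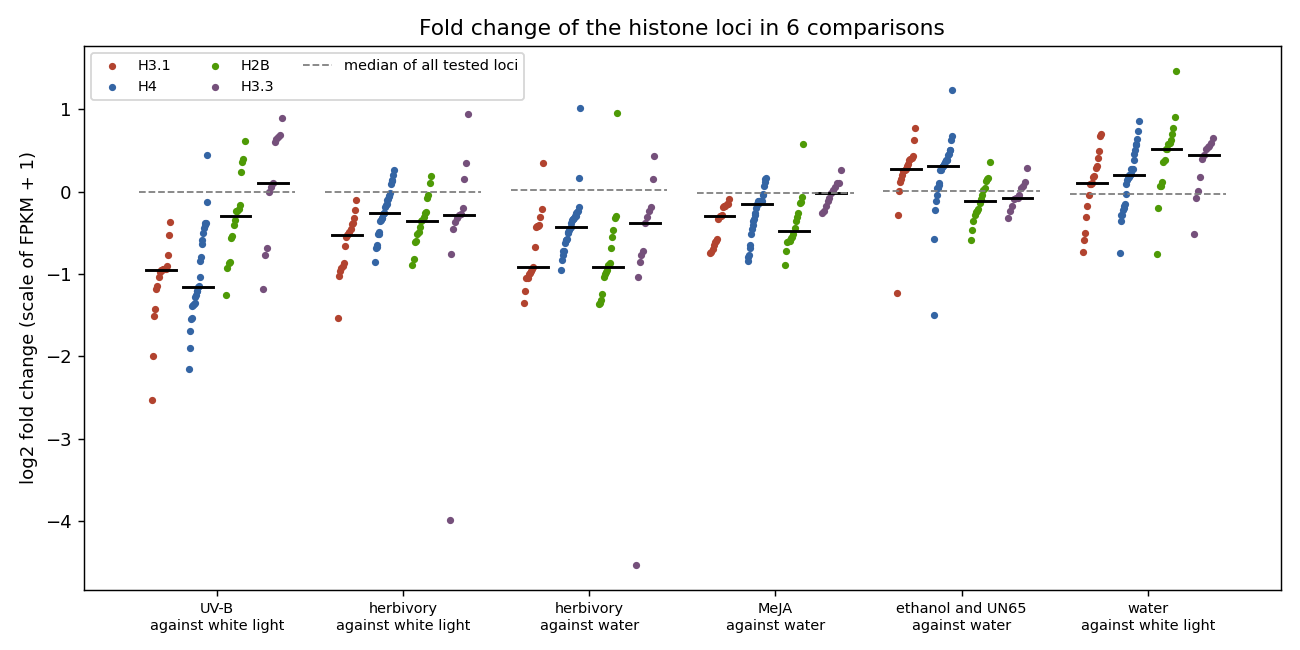
Log2 fold change of each histone locus in 6 comparisons (1 point per locus on the scale of FPKM + 1, coloured by class; black bars, class medians; dashed line, median of all tested loci). Under UV-B the H3.1 and H4 medians are −0.95 and −1.16 and the H3.3 median is 0.11, and the lowest point after herbivory is the H3.3 locus BnaC01g00910D at −3.98.

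Herbivory was set against WL, the light control, and against water, which shared the weaker light of the grazed plants but was sprayed and covered. These comparisons share the herbivory libraries. Per the study's methods, grazed plants stood in mesh cages in a cabinet set warmer than that for growth. Their ungrazed controls were kept in that same cabinet, and no library here is labelled as such a control. Against WL no member was called, where 0.0201% of all tested loci were, and 2 members had an unadjusted p under 0.05, where 9.09% of all tested loci had. All 17 H3.1 loci had a lower mean (median log2 fold change −0.52), as did 22 of 27 H4 loci (−0.26), 14 of 16 H2B loci (−0.35) and 8 of 11 H3.3 loci (−0.29). The herbivory libraries were both below WL at 5 members, where 19.9% of all tested loci were, and both above at 2, where 20.1% were. None of the 60 H3.1, H4 or H2B loci was among these 7. The photosynthesis loci were lower at all 17, with a median of −1.04. The lower means of the histones came from herbivory 42: without it the H3.1, H4 and H2B medians were 0.54, 0.66 and 0.22, and without herbivory 41 they were −1.74, −1.25 and −0.86. Without WL 41 the H4 median was 0.044. On the values as deposited, where the median of all tested loci was 0.13, the H3.1 and H4 medians were −0.34 and −0.076.

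The H3.1 locus BnaC09g46260D was at 55.7 and 13.0 FPKM after herbivory, against 63.6 and 41.9 in WL (log2 fold change −0.90, SE 0.57, adjusted p = 0.698 in limma). The H4 locus BnaC03g20760D was at 132 and 46.9 FPKM (−0.16, SE 0.62), on either side of WL. The H2B locus BnaA07g37520D was at 188 and 85.5 FPKM, with 215 and 176 in WL (−0.61, SE 0.48, adjusted p = 0.763 in limma). The H3.3 locus BnaAnng26750D had the largest positive difference among well-expressed members (0.35, SE 0.45). None of these passed the test.

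The largest negative difference after herbivory was at an H3.3 locus and rested on 1 library. BnaC01g00910D (C01, 381098 to 382337), matching HTR4, was at 146 and 188 FPKM in WL, 199 and 136 under UV-B, 0.0818 and 102 after herbivory, 226 and 261 after water, 281 and 187.5 after EU and 220.3 and 226 after MeJA. Herbivory 41 was the library with almost no signal. The log2 fold change of −3.98 (SE 1.59) was not called (adjusted p = 0.488 in limma). Without herbivory 42 the locus was called lower against WL (−7.27, adjusted p = 0.00137) and against water (−7.82, adjusted p = 0.00185). It lies in a stretch of C01 where neighbouring genes were low in the same library, with 10 neighbours at a median of −3.21, whose part in the value was not tested.

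Against water the herbivory means were lower at 16 of 17 H3.1 loci (median −0.92), 25 of 27 H4 loci (−0.43), 15 of 16 H2B loci (−0.92) and 9 of 11 H3.3 loci (−0.38), and no member was called, where 1.15% of all tested loci were. At an unadjusted p under 0.05 there were 8 members, all lower, where 18.4% of all tested loci were. The photosynthesis loci were lower at 15 of 17 (median −1.08). Both herbivory libraries were below both water libraries at 15 members, where 24.1% of all tested loci were, and above at 2, where 26.0% were. Without herbivory 42 the H3.1 and H4 medians turned to 0.45 and 0.50 and the H2B median was −0.19, and without herbivory 41 they were −1.99, −1.36 and −1.45.

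MeJA against water compared plants in the same light. No member was called, where 0.453% of all tested loci were, and 2 had an unadjusted p under 0.05, both lower, where 7.23% of all tested loci had. Means were lower after MeJA at all 17 H3.1 loci (median −0.30), 23 of 27 H4 loci (−0.15) and 15 of 16 H2B loci (−0.48), while the H3.3 median was −0.01. Both MeJA libraries were below both water libraries at 20 members, where 18.1% of all tested loci were, and above at 1, where 16.9% were. MeJA 42 was the lower of the MeJA libraries, and without MeJA 41 the H3.1 and H4 medians were −0.79 and −0.69. Without MeJA 42 they turned to 0.033 and 0.31, and the H2B median was −0.16. Among well-expressed members the largest negative difference was at the H4 locus BnaC02g44320D, with 37.1 and 48.6 FPKM after water and 32.2 and 16.6 after MeJA (−0.85, SE 0.81, not called), without overlap. The H2B locus BnaA07g37520D went from 289 and 346 to 226 and 214 FPKM, again without overlap (−0.52, SE 0.48, adjusted p = 0.996 in limma).

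Against EU, which carries the same ethanol and wetting agent, the MeJA means were lower at 16 of 17 H3.1 loci (median −0.54) and 24 of 27 H4 loci (−0.50), with no member called, where 0.00402% of all tested loci were, and 1 at an unadjusted p under 0.05, where 8.79% of all tested loci were. Both MeJA libraries were below both EU libraries at 26 members, where 22.8% of all tested loci were, and above at 1, where 22.0% were. The locus with the low p was CENH3, BnaCnng08660D, at 4.54 and 3.17 FPKM after EU and 1.34 and 0.911 after MeJA. The EU and water controls themselves were set side by side. No member was called, where 0.00402% of all tested loci were, and none had an unadjusted p under 0.05, where 2.99% had. Both EU libraries were above both water libraries at 30 members, where 15.3% of all tested loci were, 26 of them H3.1 or H4 loci, and below at 6, where 13.2% were. The medians were 0.27 for H3.1 and 0.31 for H4.

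Water against WL carries the spray, the cover and the weaker light together. No member was called, where 1.24% of all tested loci were, and 1 had an unadjusted p under 0.05, where 20.2% had. Both water libraries were above both WL libraries at 28 members, where 25.5% of all tested loci were, and below at 6, where 26.7% were. H2B and H3.3 loci had higher means (14 of 16, median 0.52, and 9 of 11, median 0.44) and H3.1 and H4 medians were 0.11 and 0.20. On the values as deposited the median of all tested loci in this comparison was 0.18, so the H3.1 and H4 medians are within the reach of the scaling.

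The locus behind the unadjusted p was BnaA06g04640D (A06, 2726505 to 2727279), an H2B locus that matches HTB8. It was at 0 and 0.148 FPKM in WL, 0.601 and 0 under UV-B, 0.111 and 0.201 after herbivory, 1.1 and 3.17 after water, 0.987 and 0.967 after EU and 0.723 and 0.490 after MeJA. Every spray library but MeJA 42 was above every unsprayed one. It reached 1 FPKM as deposited in the water libraries alone, so its entry rests on them, and it did not pass the F test (adjusted p = 0.106 in limma).

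Over the 6 groups the F test called 1 member, and 3 had an unadjusted p under 0.05 where 30.7% of all tested loci did. The third of these, after BnaC02g08740D and BnaA06g04640D, was the H3.3 locus BnaA03g03180D (A03, 1525735 to 1526496), which matches HTR4. It was at 44.2 and 37.7 FPKM in WL, 20.9 and 29.7 under UV-B, 33.8 and 25.8 after herbivory, 52.8 and 72.1 after water, 72.4 and 49.3 after EU and 82.9 and 66.0 after MeJA. All 6 spray libraries were above all 6 others, at an adjusted p of 0.0636 in limma. Among well-expressed members it had the largest positive difference of MeJA against water, at 0.26 (SE 0.34). The H4 locus BnaC06g37340D was between 2.70 and 9.63 FPKM in the WL and UV-B libraries and between 6.28 and 23.0 in the sprayed ones, with 23.1 and 3.88 after herbivory (F test, adjusted p = 0.170 in limma). BnaC06g37340D and the H4 locus BnaC04g39990D (F test, adjusted p = 0.185 in limma) were called whichever herbivory library was left out. The H3.1 loci BnaA09g53380D and BnaC02g00380D were called only without herbivory 41. These calls come from fits with a lone herbivory library.

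The rest of the chromatin and cell-cycle machinery was read from lists of Arabidopsis genes. Histones annotated in other words had medians of the same sign as the members under UV-B. The 44 further H2A loci were at a median of −0.46 (log2 fold change) under UV-B, 35 of them lower, and the 8 further H2B loci at −0.91, 7 of them lower, with none called. Their most abundant loci were BnaA02g06690D, matching HTA6, at 24.5 FPKM in UV-B 41 and 29.4 in herbivory 42 against a mean of 110.1, and BnaA02g06670D, matching HTB2, at 13.8 and 42.6 against a mean of 82.3. The H2A list, like the H3.1 and H4 loci, was lowest in UV-B 41 (−0.72) and herbivory 42 (−0.65).

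The 10 loci of linker histone H1 were lowest in the same pair of libraries by their medians (−0.77 in UV-B 41 and −1.16 in herbivory 42), and they also separated the sprayed plants from the others. They summed to 571 and 454 FPKM in WL, 471 and 546 under UV-B, 579.8 and 264 after herbivory, 979 and 1284 after water, 959 and 726 after EU and 724 and 890.1 after MeJA. All 6 spray libraries were above all 6 others. The median log2 fold change of water against WL was 1.06, with all 10 higher and none called, and 3 at an unadjusted p under 0.05, where 20.2% of all tested loci were. Herbivory against water gave the larger difference, with all 10 lower, a median of −1.48 and 9 of 10 at an unadjusted p under 0.05, where 18.4% of all tested loci were, and again none called. The most abundant, BnaA10g04420D, matching H1.2, was at 115 and 85.6 FPKM in WL and 180.2 and 242 after water.

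Genes of DNA copying and of mitosis had differences of the same sign as H3.1 and H4 in some comparisons and not in others. The 52 loci of DNA replication (the MCM helicase, PCNA, ribonucleotide reductase and origin proteins) were at a median of 0.72 in herbivory 41 and −0.08 in herbivory 42, relative to their own means, and 47 of the 52 were lower in library 42 (median difference −0.76). The 44 loci of the G2 and M phases were at 0.32 and −0.77 in those libraries. The replication list was lowest in UV-B 41 (−0.56), as H4 was, while in WL 41, where H4 was at 0.45, the replication and mitotic lists were at −0.08 and −0.43.

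Under UV-B 40 of 52 replication loci were lower, with a median log2 fold change of −0.28, whereas 33 of 44 mitotic loci were higher, with a median of 0.12. For MeJA against EU 50 of 52 replication loci and 41 of 44 mitotic loci were lower (medians −0.80 and −0.81). For EU against water 50 of 52 and 41 of 44 were higher (0.45 and 0.44). Both comparisons gave the signs of H3.1 and H4, and both rest on the same EU libraries. For herbivory against WL the signs were opposite to those of H3.1 and H4, with 45 of 52 replication loci and 38 of 44 mitotic loci higher (0.35 and 0.25). Herbivory against water had 44 of 52 replication loci higher (0.31) and 43 of 44 mitotic loci lower (−0.63), where H3.1 and H4 were lower. In MeJA against water 43 of 52 and 38 of 44 were lower (−0.31 and −0.30), as H3.1 and H4 were. For herbivory against WL or water, and for MeJA against water, those H3.1 and H4 signs rested on the lower treated library. Without that library both medians were positive, as given above. Between water and WL the replication median was 0.0039 and the mitotic median 0.93, beside H3.1 and H4 medians of 0.11 and 0.20. None of the 52 replication loci was called in any comparison.

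The most abundant replication locus went against its list under UV-B. The ribonucleotide reductase locus BnaC07g48980D (matching TSO2, which makes the building blocks of DNA) was at 16.1 and 14.1 FPKM in WL and 24.7 and 162 under UV-B (log2 fold change 2.01, SE 0.73, adjusted p = 0.158 in limma). The leading mitotic locus, BnaAnng35000D (CYCB1;2, a mitotic cyclin), was at 14.2 and 10.1 FPKM in WL and at 45.5 and 23.7 under UV-B. A locus of the mitotic kinase AUR1, BnaC01g05580D, was called lower after herbivory than after water, at 0 and 0.854 against 5.75 and 8.42 FPKM (log2 fold change −2.55, SE 0.46, adjusted p = 0.0431 in limma), where 1.15% of all tested loci were called in that comparison. Its adjusted p was 0.127 without herbivory 41, 0.149 without water 41 and 0.197 without water 42.

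**Figure D5:**
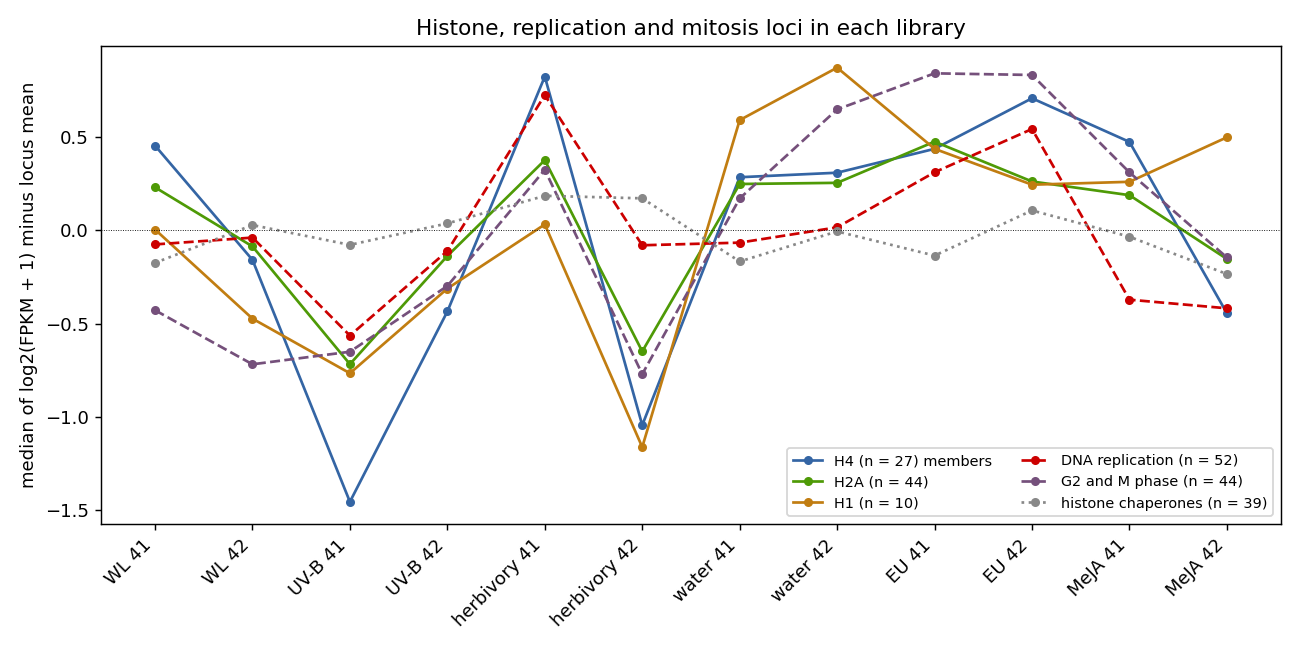
Median of log2(FPKM + 1) minus the locus mean in each library for the H4 members and for lists of other histone, histone chaperone, DNA replication and mitotic loci (number of loci in the key; lines join libraries only to guide the eye). In herbivory 42 H4 is at −1.04 and H1 at −1.16, while DNA replication is at −0.08 and histone chaperones at 0.17.

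Histone chaperones, the proteins that carry histones to and from DNA, gave the only called loci of these lists under UV-B. Of 39 loci 2 were called higher, where 2.56% of all tested loci were, and none lower, where 0.857% were. Both match NAP1;2, a chaperone of H2A and H2B. BnaA09g44140D was at 20.7 and 20.3 FPKM in WL, 41.1 and 67.5 under UV-B, 19.6 and 21.8 after herbivory and 9.97 to 13.8 in the sprayed libraries (log2 fold change 1.32, SE 0.28, adjusted p = 0.0428 in limma). BnaA07g35970D was at 0.876 and 0.893 FPKM in WL, 4.25 and 2.73 under UV-B and 0.338 to 0.832 elsewhere (1.23, SE 0.24, adjusted p = 0.0337 in limma). The latter locus reached 1 FPKM, as deposited, in the UV-B libraries alone, so it entered the test only because it was high there. At both loci the UV-B libraries were the highest of the 12. Neither call held without WL 41 (adjusted p of 0.125 and 0.105 for BnaA09g44140D and BnaA07g35970D) or WL 42 (0.170 and 0.140), the first was lost without UV-B 42 (0.0996) and the second without UV-B 41 (0.0647). The most abundant chaperone locus, BnaA08g22410D (NRP2), was at 44.5 and 61.0 FPKM in WL and 15.6 and 30.3 under UV-B (−1.22, not called), so the list did not move one way, and its median under UV-B was 0.15.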

How the data were processed

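RNA-seq of B. napus true leaves gave 12 labelled libraries in 6 groups of 2. Per the labels, the authors used TopHat2 2.1.12 and Cufflinks 2.2.1. The matrix the authors deposited under the name of read counts contains FPKM, since its UV-B columns average to the authors' UV-B group FPKM at all 101040 loci (relative tolerance 0.0001). Another 22 columns of single libraries match no label and were not used. The authors' fold changes and p-values were not used. Positions and Arabidopsis matches are those of the deposited tables. The labels list TAIR10, the Arabidopsis genome, as the build. The study's methods also name the B. napus genome for alignment, and its build version is not given in the sources used here.

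Libraries were scaled to their mean through the median ratio over loci, 1 was added and log2 taken, so fold changes of low loci are understated. limma 3.58.1 (R 4.3.3) was run on the 49700 loci with at least 1 FPKM, as deposited, in 2 libraries, with group means and a trend in the prior variance. 1 locus marked as having too much data was left out. Members and gene lists were chosen with earlier results of these data known. Named loci are the 2 most abundant of each class, called loci, the 5 smallest F test p-values, the largest rise and fall under UV-B, herbivory and MeJA at a mean log2 of at least 3, and for lists the most abundant and called loci. Others are given as examples and were chosen after their values were seen. Alternatives were other filters, pseudocounts and scalings, the compared groups alone, a replicate block, and each library left out.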

Additional observations from a re-analysis of the deposited data

How the results depend on the processing

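With 2 libraries per group the SE on the log2 scale had a median of 0.37 over all tested loci, and depth is unknown. Over 98 recomputed counts of called members, 83 stayed within 1.5 times the value reported. A count that stayed at 0 was taken as unchanged. The value reported was 0 in every comparison but UV-B against white light and the F test, so most of the 98 started from 0. Under UV-B against white light the count of 1 became 0 with at least 1 FPKM required in 4 libraries (75 members tested, BnaC02g08740D no longer among them) and 0 with the compared groups alone, where no locus of the whole table was called. Leaving out 1 library gave 0 (either WL library) to 3 (UV-B 41). For herbivory against white light and against water the count of 0 ranged from 0 to 1 (BnaC01g00910D, without herbivory 42). For water against white light it became 1 on FPKM as deposited, the H2B locus BnaA06g04640D. The F test count of 1 became 0 with the filter in 4 libraries and 2 on FPKM as deposited, where BnaA03g03180D was added, and ranged from 0 (without UV-B 42) to 5 (without herbivory 41) with 1 library left out. Without herbivory 42 it was 4. With both libraries lacking read steps left out, an alternative added after the data were seen, it was 0.

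The replicate numbers did not pair the libraries throughout: deviations from group means correlated over 0.1 in 4 of 15 pairs of groups, between −0.371 and 0.408. The 4 pairs were WL with water (0.408), WL with herbivory (0.304), UV-B with EU (0.229) and herbivory with water (0.201). A replicate block left 1 member called under UV-B (adjusted p = 0.0219 for BnaC02g08740D in limma) and 1 in the F test.

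Of 164 recomputed class medians, 152 moved by less than the replicate spread. With 2 libraries per group, leaving out 1 of them can hardly move a median further than that spread. The count therefore says little about those alternatives, and several class medians given above changed sign under them. Some single-locus effects, none of them called, changed sign too. With both libraries lacking read steps left out, the UV-B effect turned to 0.16 at BnaC09g06910D, 0.33 at BnaC03g20760D and 0.13 at BnaA03g17280D, and on FPKM as deposited the herbivory effect at BnaC03g20760D turned to 0.021. Leaving out each library in turn gave ranges from −1.95 to 0.16 for BnaC09g06910D, −1.22 to 0.33 for BnaC03g20760D and −1.13 to 0.13 for BnaA03g17280D under UV-B, and from −1.91 to 0.11 for BnaC09g46260D and −0.90 to 0.57 for BnaC03g20760D after herbivory.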
